A study of Rattus norvegicus with 8 samples.

Results

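The glycosyltransferases and glycan sulfotransferases described here are the enzymes that build, cap and sulfate the sugar chains of glycoproteins, glycolipids and proteoglycans. They were taken as the genes whose symbol in the array's annotation begins with Galnt, B3gnt, B3galt, B4galt, Mgat, Fut, St3gal, St6gal, St8sia, Ndst, Hs3st, Hs6st or Chst followed by a digit, each represented by 1 probe set, a group of probes read as 1 value. The probe set was chosen by its mean intensity, as the highest over the 8 arrays among those paired with that gene alone. The rule gave 81 of the 14506 genes measured. The name and the mean level chose the members and their probe sets, and the difference between the groups was not part of the rule, but the family was proposed with results of these arrays known. Its counts below are therefore a description beside the same counts over all genes.

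The cells were primary ventricular cardiomyocytes of newborn rats (NRVMs), heart muscle cells in short-term culture, all transfected with a lipid reagent and harvested 48 h later. The 4 arrays of the miR-222 group came from cells given 0.4 µM of a miR-222 precursor, and the 4 arrays of the control group from cells given as much of a precursor with a scrambled sequence, so every difference below sets one synthetic RNA against another. Whether the arrays of a group stem from separate cultures is not stated in the labels. The p-values below therefore cover just the spread among these samples, which may be technical. Array medians were 202 to 219 intensity units, and arrays correlated at 0.989 to 0.993 within groups and 0.983 to 0.989 between groups on the log2 scale.

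Sugar chains are assembled mostly in the Golgi apparatus, where each enzyme adds a single sugar or sulfate in a fixed linkage and often acts on the product of another. Mucin-type O-glycans start from a sugar placed on serine or threonine, N-glycans are trimmed, branched and capped on asparagine, and glycosaminoglycans such as heparan, chondroitin and keratan sulfate are long chains whose sulfate pattern sets which proteins bind them. In the heart these chains sit on adhesion proteins, ion channels, growth factor receptors and the matrix around the cardiomyocyte.

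The RNA that was added is shown first, because its seed, the stretch at bases 2 to 8 that pairs with target transcripts, is the main part of its target recognition. Both mature sequences below are from RefSeq, 5′ to 3′, with the seed in capitals. The labels do not say which strand of the precursor was meant to act, and the 3p strand is the one usually called miR-222.

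rno-miR-222-3p (GRCr8, chrX:6022682-6022702, + strand): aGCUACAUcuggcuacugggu
rno-miR-221-3p (GRCr8, chrX:6023246-6023268, + strand): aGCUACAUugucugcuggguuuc

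Among 724 mature rat miRNAs of that table, 2 carry this seed, and they are the pair shown. The 3p strand of miR-222 thus has the seed of miR-221-3p, which is encoded beside it, while the rest of the sequences differ. The 5p strand of miR-222 has another seed and is not shown. No transcript ends were searched for the seed here.

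With miR-222, 12 of the 81 glycan enzyme genes were higher, 13 were lower and 56 did not pass the test, so 25 changed (30.9%, where 24.7% of all genes changed). The test was limma's moderated test over all probe sets, with p-values adjusted by Benjamini-Hochberg and a threshold of 0.05. Over all genes 11.7% were higher and 13.0% lower. The keratan sulfate extender gene B3gnt7 rose most, by 1.53 on the log2 scale, followed by the core fucosyltransferase gene Fut8 at 0.83 and the O-glycan initiator gene Galnt10 at 0.82. Downward, the polysialyltransferase gene St8sia2 changed by -0.63 and the N-glycan branching gene Mgat5 by -0.60. Changes ran in both directions within most enzyme classes, whereas the 5 sialyltransferase genes and the 2 N-glycan branching genes that changed in this fit were lower. For the sialyltransferases this did not hold under 5 of 7 other settings, in which St3gal5 passed upward. Nor did it hold outside the name rule, where the sialyltransferase genes St6galnac2 (0.52) and St6galnac6 (0.37) were higher. The reading by class was made after the values were seen, and the classes were not tested against each other. On bulk arrays fewer cells of a type and less RNA per cell cannot be told apart.

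Log2 fold changes are miR-222 minus control, each followed by its SE, the standard error from limma, with n = 4 in each group. Levels are intensities on the linear scale of the deposited table unless log2 units are named. The median log2 fold change of the members was 0.03, against 0.01 over all genes, and the median size of their differences was 0.12 in both. In 6 members the change reached 1.5-fold. The ranges of the 2 groups of arrays did not overlap in 33 members (40.7%, against 33.3% of all genes), and in 25 of these the change passed the test.

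**Figure D1:**
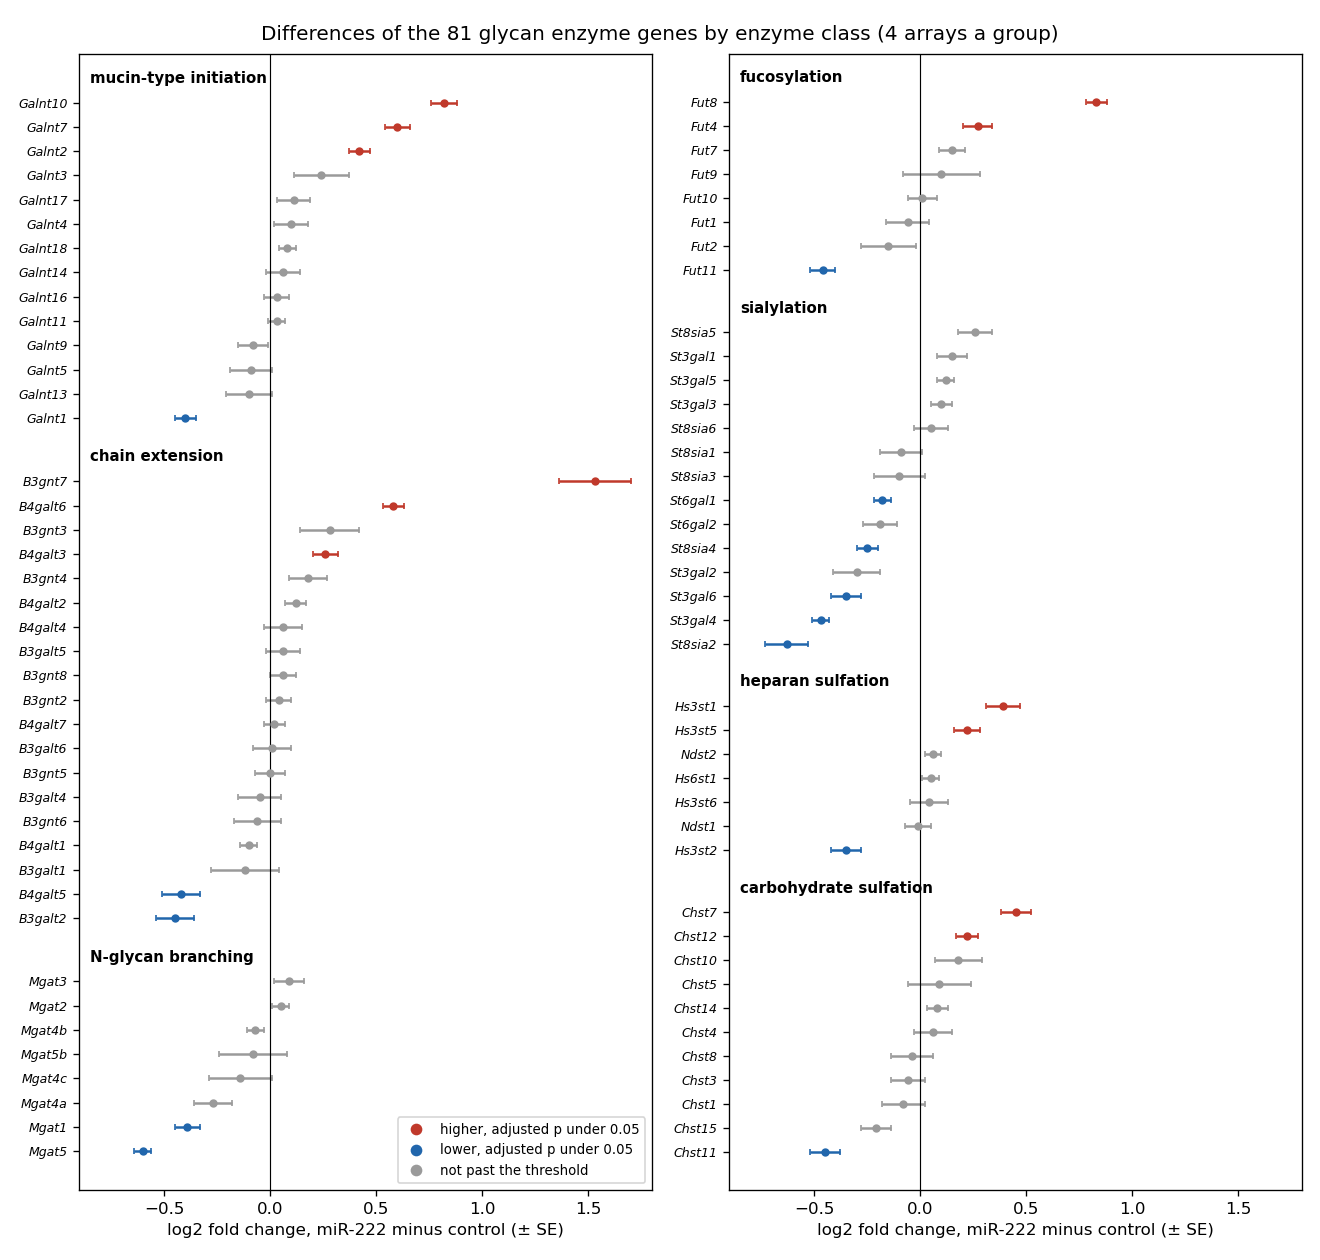
Log2 fold change, miR-222 minus control, of each of the 81 genes by enzyme class, with points for the fitted value and bars for ± SE (4 arrays a group). Red points passed the test upward (12 genes), blue points downward (13 genes) and grey points did not pass. B3gnt7 stands at 1.53, apart from the other members, which lie between -0.63 and 0.83.

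The signal of a probe set depends on its probes as well as on the RNA, so levels of different genes are only a rough order. The members' median level was 8.08 log2 units against 8.39 over all genes, and 47 of the 81 lay below the median gene. Of those 47, 11 changed (23.4%, where 9.9% of all genes below the median level did), and of the 34 brighter members 14 changed (41.2%, where 39.5% of the brighter genes did). The brightest were the ganglioside GM3 synthase gene St3gal5 at 11.53, the sialyltransferase gene St3gal2 at 11.07 and the galactosyltransferase gene B4galt6 at 10.94. At the other end Fut9, which makes the Lewis x structure in brain, stood at 5.16, the N-glycan branching homologue Mgat4c at 5.31 and the brain sialyltransferase gene St8sia3 at 6.07. None of these dimmest genes passed the test. No detection calls were used, so whether such genes lay above background is not known, and a probe set near background understates a fold change.

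**Figure D2:**
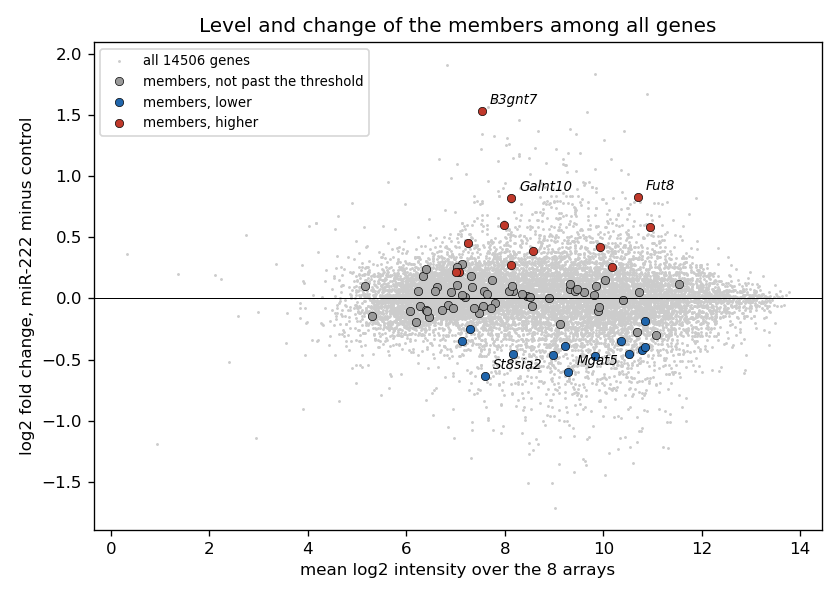
Mean log2 intensity over the 8 arrays (horizontal) against log2 fold change (vertical) for all 14506 genes (small grey points) and the 81 members (large points, coloured by call). B3gnt7 lies at a level below the median gene with the largest change of the members, and most members that passed the test downward lie among the brighter genes.

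Cultures of newborn ventricle hold some non-muscle cells. The 8 cardiomyocyte markers had control means of 12.33 to 13.59 log2 units, and their summed intensity was 76030 to 77286 in control and 71441 to 72662 in miR-222 arrays, with 2 of 8 genes lower. Fibroblast markers summed to 9290 to 10373 in control and 7997 to 9117 in miR-222 arrays, with 3 of 9 genes lower. Those were Postn, Lum and Thy1, while the other 6 lay between -0.22 and 0.11 in log2 fold change and did not pass. Smooth muscle markers summed to 15736 to 16132 and 12309 to 14914, with Tagln, at -0.91, the 1 of 6 that was lower. The other 5 lay between -0.28 and 0.16 and did not pass. The endothelial sums were 1777 to 1879 and 1190 to 1297, with Kdr the 1 of 7 measured markers that was lower. Kdr went from a mean of 9.71 to 8.19 log2 units, while the other 6 lay between -0.13 and 0.04 in log2 fold change and did not pass. That sum therefore mostly follows Kdr. Macrophage and leukocyte sums overlapped, at 1026 to 1097 and 1035 to 1168 with 1 of 8 higher, as did those of Schwann (411 to 517 and 492 to 530), epicardial (407 to 455 and 406 to 457) and erythroid markers (612 to 776 and 673 to 842, 1 of 3 higher). The table holds no zeros, so a marker's absence cannot be read from it. Their part in the differences of the glycan genes was not tested.

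Mucin-type O-glycans are started by the Galnt enzymes, which attach the first sugar, N-acetylgalactosamine, to serine or threonine. Of 14 measured Galnt genes 3 were higher, 1 was lower and 10 did not pass (28.6% changed, where 24.7% of all genes did). Galnt10, whose enzyme prefers peptides that already carry a sugar, read 227.6, 190.5, 214.3 and 211.2 in control cells and 382.3, 355.6, 363.3 and 383.6 with miR-222. The groups were well apart, with the lowest miR-222 array far above the highest control array (log2 fold change 0.82, SE 0.06, limma adjusted p = 1.30e-04). Galnt7, of the same substrate preference, went from 200.6, 196.9, 225.9 and 203.8 to 303.5, 316.8, 335.8 and 301.3. It rose by 0.60 (SE 0.06, adjusted p = 3.92e-04), again without overlap.

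Galnt1 and Galnt2 encode widely expressed initiators that act on bare peptides, and they changed in opposite directions. Control arrays gave 884.7, 812.7, 872.7 and 815.4 for Galnt2, and miR-222 arrays 1146, 1062, 1177 and 1129. For Galnt1 the values were 2162, 2116, 2157 and 1997 in control cells and 1584, 1572, 1511 and 1732 with miR-222. Neither gene had overlapping groups. Galnt2 rose by 0.42 (SE 0.05, adjusted p = 0.00109) and Galnt1 fell by 0.40 (SE 0.05, adjusted p = 0.00172). The other 10 Galnt genes lay between -0.10 and 0.24, the largest being Galnt3 at 0.24 (SE 0.13, adjusted p = 0.261), whose miR-222 arrays 1 and 4 read 110 and 107.3 while arrays 2 and 3, at 76.49 and 78.61, lay within the control range.

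The chain extenders B3gnt, B3galt and B4galt add N-acetylglucosamine or galactose alternately and so lengthen the chains. Of 19 measured members 3 were higher, 2 lower and 14 did not pass (26.3% changed, where 24.7% of all genes did). B3gnt7, which adds N-acetylglucosamine during keratan sulfate elongation, read 112.8, 100.6, 109.8 and 111.1 in control cells and 292.4, 247.8, 461.0 and 292.0 with miR-222. All 4 miR-222 arrays lay far above every control array, and replicate 3 was well above the others. The change was 2.90-fold (log2 fold change 1.53, SE 0.17, adjusted p = 7.13e-04), the sixth highest of 14506 genes, and 1.35 without miR-222 replicate 3 (adjusted p = 1.66e-04). In the control cells its level was among the dimmer ones, at 6.76 ± 0.07 log2 units (SD, n = 4), against 8.30 ± 0.39 with miR-222.

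The B3gnt7 promoter window is shown as the member with the largest change, 250 bases before to 50 after the annotated start, from RefSeq, 5′ to 3′. Capitals mark a GC box (GGGCGG) and an E-box (CACGTG), searched on both strands together with the CCAAT box (CCAAT) and the TATA box (TATAAA), and no motif overlaps another here.

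B3gnt7 (GRCr8, chr9:94403947-94404246, + strand): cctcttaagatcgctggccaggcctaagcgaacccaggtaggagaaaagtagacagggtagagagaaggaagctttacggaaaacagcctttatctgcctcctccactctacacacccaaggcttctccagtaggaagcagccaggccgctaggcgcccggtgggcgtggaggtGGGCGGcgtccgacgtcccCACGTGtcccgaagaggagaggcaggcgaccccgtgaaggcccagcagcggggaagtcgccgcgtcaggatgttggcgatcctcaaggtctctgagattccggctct

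The window held 1 GC box and 1 E-box and neither of the other motifs. Over the 11950 promoter windows of measured genes 50.2% held a GC box and 7.88% an E-box. Of the 68 members with a window in the table, 40 held a GC box and 4 an E-box. These are matches of letters only.

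B4galt5 and B4galt6 both encode lactosylceramide synthases, which make the precursor of most glycosphingolipids, and their transcripts went opposite ways. B4galt6 read 1640, 1576, 1664 and 1551 in control cells and 2333, 2338, 2577 and 2391 with miR-222, a rise of 0.58 (SE 0.05, adjusted p = 2.03e-04). B4galt5 read 2070, 2074, 2096 and 1930 and then 1626, 1639, 1247 and 1623, a change of -0.42 (SE 0.09, adjusted p = 0.0153). In both genes the groups were apart, and in both miR-222 replicate 3 was the array farthest from control. Without that array the values were 0.55 and -0.33 and both passed (adjusted p = 3.98e-04 and 0.00327). Levels of different probe sets cannot be set against each other, so the balance of the pair is not given.

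B4galt3, which acts on N-glycans, rose by 0.26 (SE 0.06, adjusted p = 0.0143), from 1073, 1090, 1063 and 1015 to 1216, 1238, 1396 and 1227. B3galt2, a galactosyltransferase that makes type 1 chains, went from 1654, 1731, 1694 and 1770 to 1313, 1415, 1033 and 1298, a change of -0.45 (SE 0.09, adjusted p = 0.0119) with replicate 3 lowest. Neither gene's groups overlapped. The remaining 14 genes of the class lay between -0.12 and 0.28. The largest of these was B3gnt3 at 0.28 (SE 0.14, adjusted p = 0.211), with control arrays spread from 98.36 to 151.0. B4galt7 at 0.02 and B3galt6 at 0.01, which build the linker that joins glycosaminoglycans to their core proteins, and B4galt1, the main galactosyltransferase of N-glycans, at -0.10 (SE 0.04), did not pass.

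**Figure D3:**
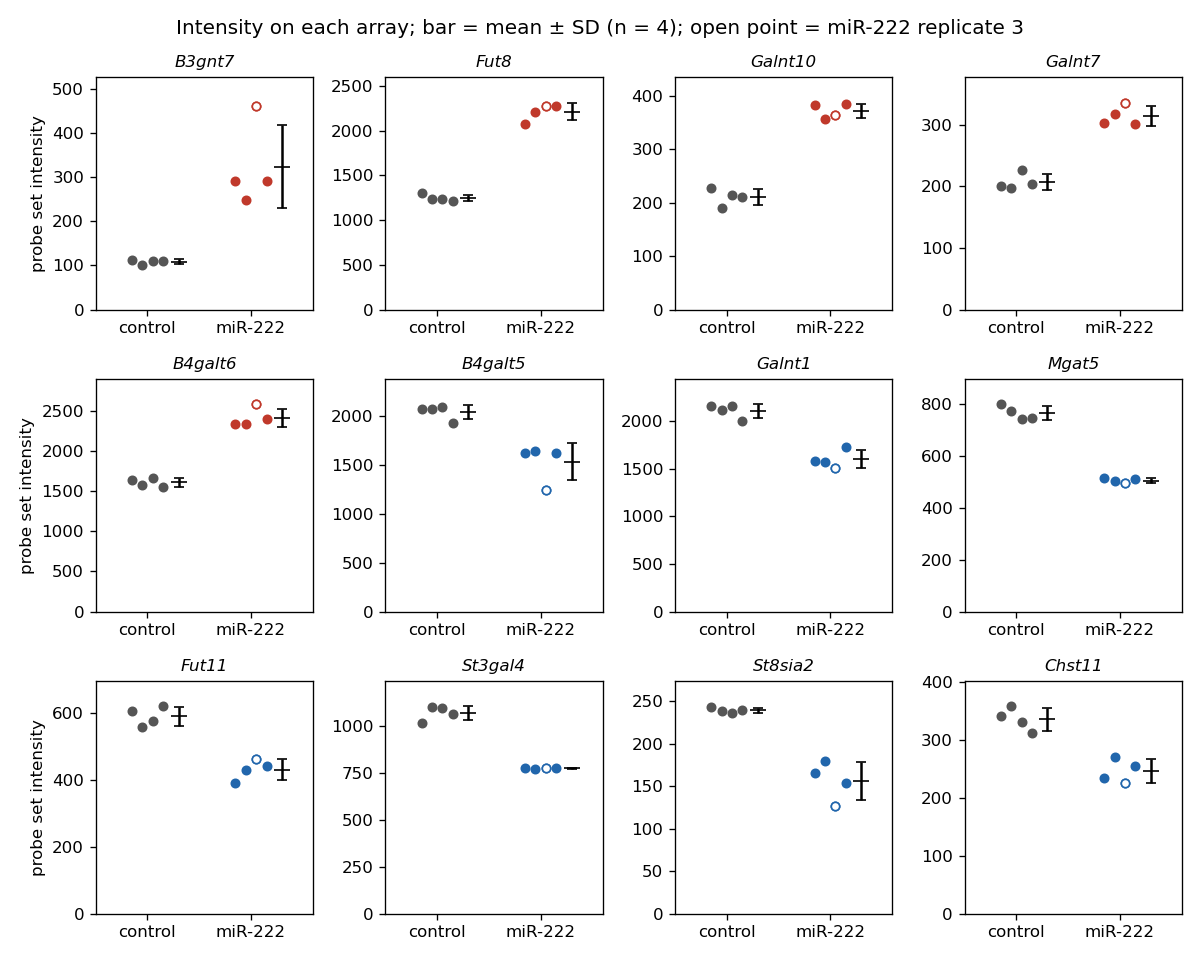
Probe set intensity (linear, axes from 0) on each of the 4 control and 4 miR-222 arrays for 12 members that passed the test, with a bar for the mean ± SD (n = 4) and an open point for miR-222 replicate 3. The groups do not overlap in any of the 12 panels, and replicate 3 stands apart for B3gnt7 at 461.0 and for B4galt5 at 1247.

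N-glycan branching depends on the Mgat enzymes, which add N-acetylglucosamine to the trimmed core. Of 8 measured members 2 were lower, none was higher and 6 did not pass (25% changed, where 24.7% of all genes did). Mgat5, whose branch carries long lactosamine chains on growth factor receptors and cadherins, read 800.0, 773.1, 741.8 and 747.0 in control cells and 513.9, 502.9, 495.5 and 510.0 with miR-222. Both groups were tight, and the change was -0.60 (SE 0.04, adjusted p = 8.72e-05). Mgat1, which opens the way to complex N-glycans, went from 697.8, 694.7, 706.8 and 651.5 to 543.5, 541.9, 465.9 and 551.8, a change of -0.39 (SE 0.06, adjusted p = 0.00401).

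Mgat4a, an enzyme of a further branch, was the single member measured by a second probe set, which the rule did not use. The brighter probe set gave -0.27 (SE 0.09, adjusted p = 0.0629) and did not pass, although its groups did not overlap, with 1858, 1658, 1890 and 1806 in control cells and 1649, 1423, 1304 and 1624 with miR-222. The other probe set read 10.63, 10.64, 10.62 and 10.59 log2 units and then 10.46, 10.30, 10.15 and 10.36. It gave -0.30 (SE 0.07) and passed (adjusted p = 0.0148). Without the dimmest probe sets, with the trended robust prior or with 1-gene probe sets only, the brighter probe set passed downward. Its adjusted p was then 0.0234 to 0.0394, and the mean over the gene's probe sets passed as well (adjusted p = 0.0155). Mgat2, which acts directly after Mgat1, was at 0.05 (SE 0.04, adjusted p = 0.419), and Mgat3, which adds the bisecting sugar, at 0.09 (SE 0.07, adjusted p = 0.46).

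Among the 8 measured fucosyltransferase genes, 2 rose, 1 fell and 5 did not pass (37.5% changed, where 24.7% of all genes did). Fut8 encodes the only enzyme known to place the core fucose of N-glycans. It read 1300, 1232, 1234 and 1217 in control cells and 2073, 2212, 2277 and 2278 with miR-222. The rise was 1.77-fold (0.83, SE 0.05, adjusted p = 4.95e-05), and no array of either group came near the other. Fut4, which makes Lewis x structures, went from 264.1, 241.7, 246.5 and 259.6 to 274.0, 312.7, 339.5 and 297.4, a rise of 0.27 (SE 0.07, adjusted p = 0.0305). Leaving out 1 array ended that call in 7 of 8 fits, the exception being miR-222 replicate 1, with an adjusted p of at most 0.0831. Fut11, another fucosyltransferase gene, went from 606.3, 557.8, 577.9 and 621.0 to 389.8, 430.1, 463.5 and 440.9 and fell by 0.46 (SE 0.06, adjusted p = 0.00199). Its relative Fut10 measured 0.01 (SE 0.07, adjusted p = 0.937), and the largest difference that did not pass was that of Fut2 at -0.15 (SE 0.13).

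Sialyltransferases cap chains with sialic acid, which gives the cell surface much of its negative charge. Of 14 measured members 5 were lower, none was higher and 9 did not pass, with a class median of -0.14. The share that changed was 35.7%, where 24.7% of all genes did. Under 5 of 7 other settings at least St3gal5 was called higher. St6galnac2 (0.52) and St6galnac6 (0.37), sialyltransferase genes outside the name rule, were higher in the main fit. The groups did not overlap in 9 of the 14, of which 6 were lower and 3 higher with miR-222 (64.3%, against 33.3% of all genes). St8sia2 and St8sia4 encode the enzymes that build polysialic acid, a long chain carried chiefly by the neural cell adhesion molecule. St8sia2 went from 242.8, 238.0, 236.2 and 240.0 to 165.8, 179.2, 126.4 and 153.4 (-0.63, SE 0.10, adjusted p = 0.0035). St8sia4 went from 169.1, 166.9, 168.6 and 179.2 to 140.2, 153.7, 142.0 and 139.5 (-0.25, SE 0.05, adjusted p = 0.00835). Both were dim, below the median gene, and in both every miR-222 array lay below every control array.

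Their promoter windows are shown because both polysialic acid genes were lower, from the same table and with capitals for the same motifs on either strand. ATTGG and CCGCCC are the CCAAT box and the GC box read on the other strand.

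St8sia2 (GRCr8, chr1:137247704-137248003, - strand): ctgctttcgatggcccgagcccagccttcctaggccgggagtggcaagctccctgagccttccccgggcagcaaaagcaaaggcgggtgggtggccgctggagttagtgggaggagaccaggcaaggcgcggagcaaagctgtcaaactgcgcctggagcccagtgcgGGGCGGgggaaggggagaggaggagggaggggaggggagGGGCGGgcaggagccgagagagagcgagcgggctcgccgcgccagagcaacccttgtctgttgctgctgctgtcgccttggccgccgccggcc
St8sia4 (GRCr8, chr9:103531959-103532258, - strand): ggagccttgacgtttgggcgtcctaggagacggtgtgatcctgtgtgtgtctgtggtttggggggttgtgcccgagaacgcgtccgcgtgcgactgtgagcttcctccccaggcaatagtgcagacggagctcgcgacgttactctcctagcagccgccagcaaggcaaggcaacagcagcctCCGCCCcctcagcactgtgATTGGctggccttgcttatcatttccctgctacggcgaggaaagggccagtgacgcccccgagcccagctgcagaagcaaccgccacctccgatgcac

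The St8sia2 window held 2 GC boxes and the St8sia4 window 1 GC box and 1 CCAAT box, so the pair shared the GC box, which 50.2% of the windows of measured genes hold. A CCAAT box was in 38.4% of those windows. Of the 13 members that were lower, all with a window, 7 held a GC box and 5 a CCAAT box, and of the 10 higher members with a window, 5 and 2 did.

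St3gal4 and St3gal6 attach sialic acid to the terminal galactose of N-glycans and related chains. St3gal4 read 1016, 1101, 1096 and 1062 in control cells and 774.1, 768.8, 773.6 and 776.6 with miR-222, a narrow range at a lower level (-0.47, SE 0.04, adjusted p = 2.39e-04). St3gal6 went from 1502, 1399, 1378 and 1622 to 1069, 1209, 1191 and 1161 (-0.35, SE 0.07, adjusted p = 0.0083). St6gal1, which makes the other common sialic acid linkage of N-glycans, went from 2005, 1978, 1939 and 1958 to 1710, 1836, 1713 and 1707 (-0.18, SE 0.04, adjusted p = 0.0183). Its change was small, and it no longer passed in 4 fits with 1 array left out (controls 1 and 2, miR-222 arrays 1 and 4, highest adjusted p = 0.0604).

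The brightest members of the class behaved differently from each other. St3gal2, which acts on O-glycans and gangliosides, read 2393, 2377, 2398 and 2364 in control cells and 1959, 2282, 1513 and 2059 with miR-222. The groups did not overlap, but the miR-222 arrays scattered, and the value of -0.30 (SE 0.11, adjusted p = 0.111) did not pass (adjusted p = 0.0449 without miR-222 replicate 2). St3gal5 read 2867, 2880, 2859 and 2735 and then 3114, 2971, 3074 and 3122, a value of 0.12 (SE 0.04, adjusted p = 0.081). It was the brightest member and had no array of miR-222 below any control array. It did not pass here, but did so upward with quantile normalization, without the dimmest probe sets, with the trended robust prior, with 1-gene probe sets only and with gene means (adjusted p = 0.0113 to 0.0465). The 9 members not past the threshold lay between -0.30 and 0.26, with St8sia5 highest at 0.26 (SE 0.08, adjusted p = 0.06). St8sia5 passed upward under 3 of the 7 other settings and without miR-222 replicate 4, and St3gal1 without miR-222 replicate 3.

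Heparan sulfate is modified by the Ndst, Hs6st and Hs3st enzymes, which place sulfates that growth factors and antithrombin recognise. Of 7 measured members 2 were higher, 1 was lower and 4 did not pass (42.9% changed, where 24.7% of all genes did). The 3 that changed were all Hs3st genes, which act at the last step. Of the 4 Hs3st genes measured, Hs3st6 at 0.04 (SE 0.09, adjusted p = 0.799) did not pass. Just 2 Ndst genes and 1 Hs6st gene were measured for the earlier steps. Hs3st1, which makes the antithrombin binding site, went from 319.8, 360.6, 332.3 and 326.5 to 424.8, 386.7, 497.1 and 448.9 (0.39, SE 0.08, adjusted p = 0.0118). Hs3st5, whose enzyme can make the same site, went from 120.2, 118.4, 109.6 and 128.4 to 135.8, 146.3, 136.2 and 136.2 (0.22, SE 0.06, adjusted p = 0.0305). In 7 of 8 fits with 1 array left out this gene no longer passed, the exception being control replicate 4, with an adjusted p of at most 0.075. Hs3st2, an enzyme best known from brain, fell by 0.35 (SE 0.07, adjusted p = 0.0117), from 150.1, 165.0, 160.6 and 161.4 to 111.1, 137.3, 132.0 and 122.1. Ndst1 at -0.01 (SE 0.06), Ndst2 at 0.06 (SE 0.04) and Hs6st1 at 0.05 (SE 0.04), which act earlier on the chain, did not pass, and Ndst2 was the largest difference among the 4.

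Carbohydrate sulfotransferases of the Chst group act mainly on chondroitin, dermatan and keratan sulfate. Of 11 measured members 2 were higher, 1 was lower and 8 did not pass (27.3% changed, where 24.7% of all genes did). Chst11, a chondroitin 4-O-sulfotransferase, went from 340.6, 358.2, 331.0 and 311.0 to 234.0, 271.2, 225.0 and 255.4 (-0.45, SE 0.07, adjusted p = 0.0038). Chst12, which sulfates the same position, moved the other way, from 127.9, 113.8, 128.0 and 125.4 to 139.4, 144.5, 149.0 and 143.5 (0.22, SE 0.05, adjusted p = 0.0192), a call lost when the arrays were centred on their medians (adjusted p = 0.0546). Chst7, a chondroitin 6-O-sulfotransferase, rose from 125.8, 123.4, 131.7 and 144.3 to 174.6, 182.2, 192.7 and 166.9 (0.45, SE 0.07, adjusted p = 0.00263). None of these 3 genes had overlapping groups. Chst1, which sulfates the galactose of keratan sulfate, was at -0.08 (SE 0.10, adjusted p = 0.657). The other members not past the threshold lay between -0.21 and 0.18, with Chst15, the enzyme of disulfated chondroitin, at -0.21 (SE 0.07, adjusted p = 0.0751). Chst15 passed without miR-222 replicate 4 (adjusted p = 0.0172). It also passed without the dimmest probe sets, with the trended robust prior, with 1-gene probe sets only and with gene means. Its adjusted p was then 0.0415 to 0.0473.

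**Figure D4:**
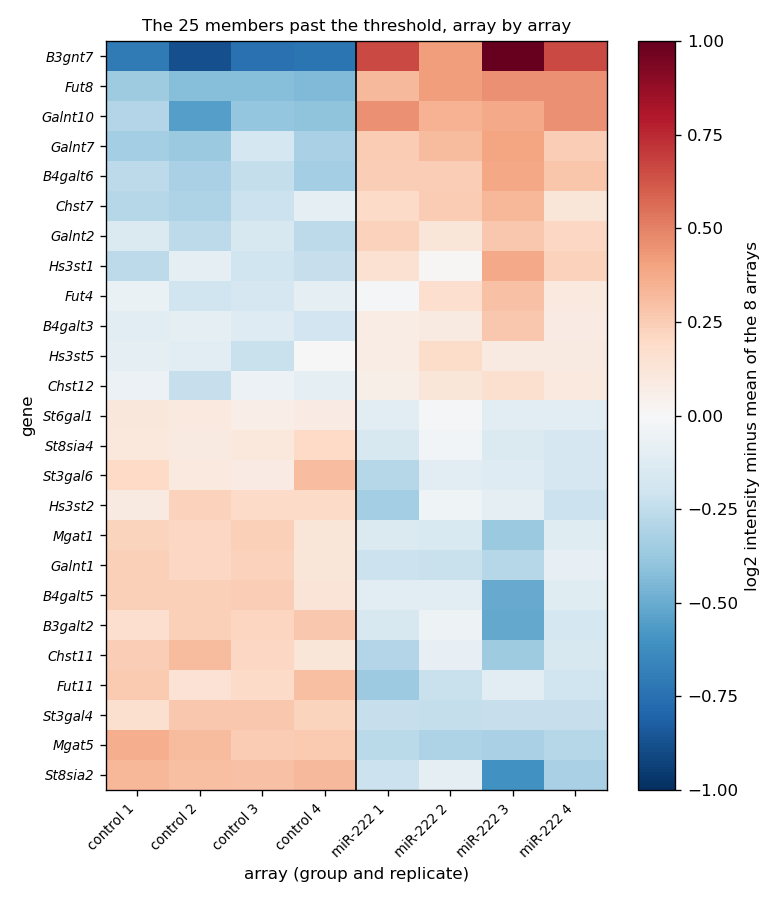
Log2 intensity minus the mean of the 8 arrays for the 25 members that passed the test (rows, sorted by change) on each array (columns, control left of the line), with red above and blue below the mean and colour limits at -1 and 1. Control and miR-222 arrays separate in every row, and miR-222 replicate 3 holds the deepest colour of the miR-222 arrays in many rows.

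Among the miR-222 arrays, replicate 3 lay farthest from control in most of the changed members. It was the highest of the 4 in 9 of the 12 higher genes and the lowest in 7 of the 13 lower genes. The mean of the higher genes, centred on the 8 arrays, was 0.39 in replicate 3 and 0.23 to 0.25 in the other 3, and that of the lower genes -0.29 against -0.23 to -0.13. Without replicate 3 the counts were 11 higher and 13 lower, and 23 of the 25 calls were kept. Fut4 (adjusted p = 0.0535) and Hs3st5 (adjusted p = 0.0546) were lost and St3gal1 was gained.

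The other genes of glycan synthesis come from lists of enzymes, donors and core proteins outside the name rule, and of 98 measured genes 23 were higher, 15 lower and 60 did not pass, with 9 lower without control replicate 1. The share that changed was 38.8%, against 24.7% of all genes and 39.5% of the genes at or above the median level, and these 98 were brighter than all genes (median level 9.38 against 8.39 log2 units). Their median log2 fold change was 0.05, against 0.01 over all genes. In the mucin-type core list 3 of 10 genes were higher and none lower. They were C1galt1, which makes the core 1 structure on the sugar that Galnt enzymes place, at 0.51 (SE 0.06, adjusted p = 6.87e-04), and the sialyltransferase genes St6galnac2 at 0.52 (SE 0.07) and St6galnac6 at 0.37 (SE 0.04). These are sialyltransferases outside the name rule.

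N-glycan trimming enzymes remove glucose and mannose, some before Mgat1 acts and some, such as Man2a2, on its product. In that list 3 of 9 genes were higher and 2 lower. Man1c1, a Golgi mannosidase, rose by 1.29 (SE 0.14, adjusted p = 5.55e-04), Man2a2 by 0.21 (SE 0.05) and Man1a1 fell by 0.17 (SE 0.04), calls that were lost with arrays centred on their medians (Man2a2, adjusted p = 0.0739) and without control replicate 1 (Man1a1, adjusted p = 0.0516). Among the 22 measured genes of sugar and sulfate donors 6 were higher and 2 lower. Cmas, which activates sialic acid, rose by 0.55 (SE 0.05, adjusted p = 2.49e-04), Gfpt1, which opens the hexosamine pathway, by 0.38 (SE 0.06) and the transporter gene Slc35a3 by 0.26 (SE 0.04).

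The heparan sulfate list, which holds enzymes that build the chain and enzymes that cleave it or remove its sulfate, gave 3 higher and 2 lower of 9 genes, with Hs2st1, a heparan sulfotransferase outside the name rule, at 0.44 (SE 0.04, adjusted p = 3.84e-04), the exostosin-like gene Extl3 at 0.28 (SE 0.04) and the sulfatase gene Sulf2, which removes sulfate, at 0.23 (SE 0.04). For chondroitin and dermatan sulfate 1 of 7 was higher and 2 were lower. Csgalnact2, which starts the chondroitin chain, fell by 0.42 (SE 0.04, adjusted p = 3.89e-04), and the polymerase gene Chsy1 by 0.25 (SE 0.05), whereas the sulfotransferase gene Ust rose by 0.25 (SE 0.05). Of 7 linker genes Xylt2, which attaches the first xylose, was the one that rose in this fit, at 0.28 (SE 0.06). Fam20b at -0.19 and Xylt1 at 0.17 did not pass (adjusted p = 0.0506 and 0.0538). Both passed without the dimmest probe sets, with 1-gene probe sets only and with gene means (adjusted p = 0.0284 to 0.0313). Fam20b also passed with the offset, with the trended robust prior and without control replicate 4, and Xylt1 without control replicate 3 (adjusted p = 0.0189 to 0.0493).

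Core proteins carry these chains. Of 17 measured cores of heparan and chondroitin sulfate 3 were higher and 4 lower, with Cspg4 at -0.72 (SE 0.06, adjusted p = 2.54e-04), agrin, Agrn, at 0.49 (SE 0.06) and versican, Vcan, at -0.39 (SE 0.06). Of 6 cores that can carry keratan sulfate 3 were lower and none higher, where 13.0% of all genes were lower. They were lumican, Lum, at -0.89 (SE 0.13, adjusted p = 0.00209), Prelp at -0.38 (SE 0.06) and Ogn at -0.27 (SE 0.05). The other 3, Fmod at -0.08 (SE 0.05), Omd at -0.05 (SE 0.13) and Kera at -0.04 (SE 0.13), did not pass and lay below the median gene level. Lum is also one of the fibroblast markers above, whose sums were lower with miR-222. A part of non-muscle cells in these core protein values was not tested. In glycolipid synthesis 2 of 5 genes rose, A4galt by 0.26 (SE 0.05) and B3galnt1 by 0.36 (SE 0.09). The glucosylceramide synthase gene Ugcg was at -0.18 and did not pass (adjusted p = 0.0815), but did with 1-gene probe sets only (adjusted p = 0.0498). B3galnt1 no longer passed in 5 fits with 1 array left out (controls 1 and 4, miR-222 arrays 1, 2 and 4) or with quantile normalization or median centring (highest adjusted p = 0.0696). In the list of dystroglycan O-mannose glycans, whose loss causes muscular dystrophy, 1 of 6 measured genes changed, Pomt2 at 0.20 (SE 0.04), with Pomt1 at -0.11 and B4gat1 at -0.10 not past the threshold. The call of Pomt2 was lost with arrays centred on their medians (adjusted p = 0.0643).

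**Figure D5:**
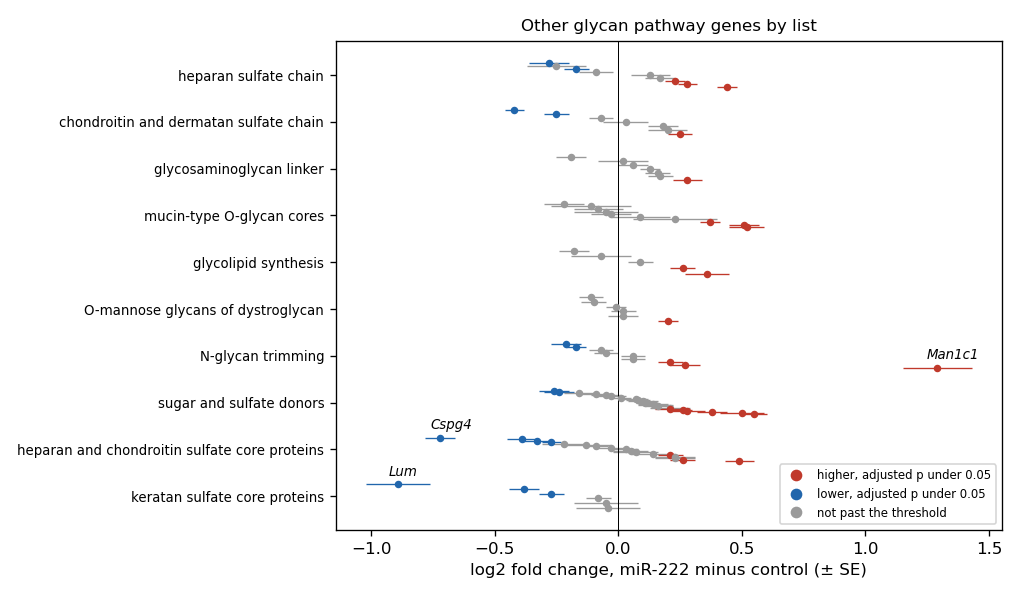
Log2 fold change, miR-222 minus control, of the 98 other genes of glycan synthesis by list (rows), with points for genes and bars for ± SE. Man1c1 stands highest at 1.29 and Lum lowest at -0.89. In the row of keratan sulfate core proteins all 6 points lie below 0, but 3 of them, between -0.08 and -0.04, did not pass.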

How the data were processed

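RNA from cultured newborn rat cardiomyocytes was labelled with biotin by in vitro transcription and hybridised to 8 arrays, 4 a group, per the labels' protocols. The deposited table holds linear probe set intensities from 0.8 to 16339. The array medians are alike, but the authors' background correction, summarisation and normalization are not given in any source used. The identifiers pair with Affymetrix Rat Gene 1.0 ST annotation, although the design text names another array model. Of 29170 probe sets 15310 paired with 1 gene, 323 with several and 13537 with none. All 81 member identifiers were found in RefSeq (GRCr8), where 19 further protein-coding genes of the name rule had no probe set paired and were not analysed here.

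Intensities were taken as log2 without an offset and all probe sets were compared with limma 3.58.1 (lmFit, eBayes) in R 4.3.3, 2-sided, Benjamini-Hochberg over all probe sets, threshold 0.05. The fit was tested on 5 simulated data sets with normal noise and 200 of 29170 probe sets changed. It recovered 59.6% of changes of 0.5 and 87.6% of changes of 1 log2 unit, and 5.46% of its calls were false. These shares may not hold for the arrays themselves, where 24.7% of genes passed. Array replicates are numbered in listing order and pair nothing. Members, lists and tests were chosen with earlier results of these data known. Named were all members past the threshold, the 3 brightest and 3 dimmest, the largest difference not past it in each class and up to 3 genes of each other list by smallest p; further names were chosen after their values were seen. Alternatives were an offset of 16, quantile normalization, median centring, the dimmest probe sets left out, a trended robust prior, 1-gene probe sets only, means over a gene's probe sets, and each array left out. The number of arrays limits the precision. Promoter and miRNA sequences are RefSeq's, the first window listed for a gene. Figures used matplotlib 3.10.9.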

Additional observations from a re-analysis of the deposited data

Results flagged for a closer look

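In groups of 4 arrays, 1 array can stand apart from the other 3 by more of the group's log2 range than Dixon's 95% limit. This was so in 8 of 72 groups of the glycan enzyme genes named by rule, where chance flags about 1 in 20 independent groups. miR-222 replicate 3 was that array for B4galt5 (1247 against 1623 to 1639, gap 0.963 of the range), for B4galt3 (1396 against 1216 to 1238, gap 0.867) and for Mgat1 (465.9 against 541.9 to 551.8, gap 0.893), each time on the side away from control. miR-222 replicate 2 was it for Hs3st5 (146.3 against 135.8 to 136.2, gap 0.954), away from control, and for St6gal1 (1836 against 1707 to 1713, gap 0.954), toward control. Control replicate 4 was low for B4galt5 (1930 against 2070 to 2096, gap 0.844) and for St3gal5 (2735 against 2859 to 2880, gap 0.857), and control replicate 1 was high for the dim gene Fut9 (48.15 against 30.7 to 31.32, gap 0.956). Gaps were taken on log2 values, whereas the intensities printed are linear. The groups share the same 8 arrays, and many of the genes were named for their difference. The rate of 1 in 20 is therefore no test of these groups. Why these arrays stand apart was not tested.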

How the results depend on the processing

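No paired analysis was possible because the labels give the groups no shared replicate numbers. Of the 25 glycan enzyme genes past the threshold, 22 kept their call in all 8 fits that left out 1 array, and none changed direction. Over these fits the members numbered 10 to 11 higher and 12 to 14 lower, all genes 1267 to 1571 higher and 1404 to 1834 lower, and the other glycan pathway genes 18 to 22 higher and 9 to 14 lower, with the lowest count, 9 of 15, without control replicate 1, where the cause was not tested. The other 7 settings gave 11 to 14 members higher and 13 to 15 lower. Over all genes they gave 1191 to 2060 higher and 1834 to 2205 lower, against 1693 and 1888 in the main fit. Among the other glycan pathway genes 17 to 30 were higher and 12 to 17 lower. Chst12 was lost with quantile normalization (adjusted p = 0.0543), median centring (0.0546) and the trended robust prior (0.0593), and Hs3st5 with that prior (0.0714). Gained calls, in 1 or more settings, were those of Chst15, Mgat4a, St8sia5 and St3gal5. Over the genes named by rule and all settings 927 values stayed on their side of the threshold, 32 lost and 26 gained a call, and none reversed. Genes named after their values were seen, such as St8sia5 and St3gal1, are not in these counts. Of the changed members, 11 lay below the median gene level, where background can compress a difference.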

Other observations

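The genes next to the changed glycan enzyme genes in the RefSeq order of GRCr8 were looked up among the measured genes. Of the 50 nearest measured neighbours of the 25 changed members, 12 passed the test in the same direction as the member, 4 in the opposite direction and 34 did not pass. Over all genes 24.7% passed, 11.7% upward and 13.0% downward, and the neighbours were not tested against that share. Both neighbours of Galnt10 were higher, Mfap3 at 0.32 (SE 0.05) and Hand1, a heart transcription factor, at 0.31 (SE 0.06). Both neighbours of St8sia2 were lower, Slco3a1, an organic anion transporter, at -0.66 (SE 0.09) and the chromatin remodeller gene Chd2 at -0.22 (SE 0.06). On either side of B3gnt7 lay Armc9 at 0.35 (SE 0.05), which passed, and the nucleolin gene Ncl at 0.08 (SE 0.04), which did not (limma adjusted p = 0.00152 and 0.17). These neighbours were named after their values were seen.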
